A study of Mus musculus with 9 samples.

Results

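The genes described here are 8 G protein-coupled receptors for microbial metabolites and nutrients, namely Ffar1, Ffar2, Ffar3, Ffar4, Gpr119, Gpbar1, Gpr35 and Hcar2. They were taken by gene symbol from a count table of 78239 genes, and all 8 symbols were found there. A filter on low counts left 20610 genes for testing, 7 of the 8 receptors among them, and removed Gpbar1. The libraries hold polyadenylated RNA of intestinal epithelial cells from 8 weeks old mice of the Lgr5-2A-eGFP line. GFP stands there for the activity of Lgr5, which encodes a receptor of intestinal stem cells. The 3 groups, with 3 libraries each, are GFP-high colon, GFP-negative colon and small intestine. Every group carries the reporter allele, and no further allele, treatment or agent is named in the labels. Crypts were freed with a chelating buffer, TrypLE made them into single cells, and flow cytometry separated these by GFP, with a minimum of 30000 colon cells or 50000 small intestinal cells per fraction. The labels give no GFP fraction for the small intestinal libraries, so tissue and GFP fraction cannot be told apart in any comparison with them. They also do not say whether the libraries came from separate animals, so the p-values below measure only the spread between these samples, which may be technical.

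Gut microbes ferment fibre to the short-chain fatty acids acetate, propionate and butyrate, which reach high concentrations in the colon, and dietary fat and bile acids are taken up mainly in the small intestine. Epithelial cells read these molecules through receptors at the cell surface, and enteroendocrine cells, the hormone-secreting cells of the epithelium, answer several of them by releasing gut hormones such as GLP-1 and PYY. FFAR2 and FFAR3 bind short-chain fatty acids, FFAR1 and FFAR4 bind longer fatty acids, GPR119 binds lipid amides and monoacylglycerols, GPBAR1 binds bile acids, GPR35 binds tryptophan metabolites and lysophospholipids, and HCAR2 binds niacin, butyrate and the ketone body beta-hydroxybutyrate.

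Depth was even over the libraries, with 86621513 to 106673547 counts per library, at which 3 counts make 0.0232 to 0.0411 CPM (counts per 1e6 of the library's total after scaling by its deposited normalisation factor). Epcam, an epithelial surface protein, stood between 3017 and 6207 CPM in all 9 libraries. In replicates 1 and 3, Lgr5 had 43.5 and 73.0 CPM in GFP-high colon, against 2.84 and 6.28 CPM in GFP-negative colon. In the replicate 2 pair it went against the labels, with 0.958 CPM under the GFP-high label and 62.1 CPM under the GFP-negative label. No library was moved to another group, and calls lost without this pair are named. Summed over 20 enteroendocrine genes, the level was 101, 8920 and 354 CPM in GFP-high colon replicates 1 to 3, 2746, 124 and 2159 CPM in GFP-negative colon and 466, 362 and 524 CPM in small intestine. Summed over 20 leukocyte genes it was 9.22, 395 and 29.1 CPM in GFP-high colon, 717, 28.6 and 3598 CPM in GFP-negative colon and 81.6, 63.1 and 101 CPM in small intestine. In GFP-high colon replicate 1, 10 of those 20 leukocyte genes had no count, and in GFP-negative colon replicate 3 all had counts, with Ptprc, the pan-leukocyte marker, at 89.7 CPM. Sums over epithelial markers were 12392 to 27437 CPM in colon and 14012 to 28524 CPM in small intestine, and sums over markers of stroma, endothelium and nerve were 7.54 to 14.4 CPM in colon and 11.1 to 21.9 CPM in small intestine. Markers of Paneth cells, which belong to the small intestine, summed to 16.8 to 337 CPM in the 6 colon libraries and 17208 to 27909 CPM in small intestine.

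Ffar2, Ffar3 and Ffar1 lie next to each other on the minus strand of chromosome 7. In GENCODE M21 on GRCm38, Ffar2 (ENSMUSG00000051314.12) spans 30818348 to 30823775, Ffar3 (ENSMUSG00000019429.8) 30854330 to 30856178 and Ffar1 (ENSMUSG00000044453.6) 30857390 to 30861564. The IDs in brackets, here and below, are those of the count table, and their versions differ from those in GENCODE M21. Ffar3 and Ffar1 are 1212 bases apart, and Ffar2 and Ffar3 are 30555 bases apart. Cd22, a B cell gene on the same strand, has its 3′ end 3838 bases beyond Ffar1. The other members are spread over the genome. Ffar4 (ENSMUSG00000054200.8) lies on the plus strand of chromosome 19 from 38097071 to 38114263, and Hcar2 (ENSMUSG00000045502.7) on the minus strand of chromosome 5 from 123863570 to 123865499. Gpbar1 (ENSMUSG00000064272.4) and Gpr35 (ENSMUSG00000026271.16) are on the plus strand of chromosome 1, from 74278550 to 74279624 and from 92950865 to 92986391. Gpr119 (ENSMUSG00000051209.4) is on the minus strand of chromosome X from 48667979 to 48674478. No annotated gene overlaps any of the 8.

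The promoters shown here are those of Ffar2 and Ffar4, the receptors that passed the test between colon and small intestine, and of Ffar3, the neighbour of Ffar2 that binds the same ligands and did not pass the test. RefSeq promoter windows (GRCm38.p6) were found for 7 of the 8 receptors, 11 windows in all, with none for Hcar2. Each sequence is printed 5′ to 3′ on the gene's strand, cut to 280 bases, and ends 30 bases after the annotated start site. Capitals mark matches, on either strand, to 4 short motifs of intestinal or enteroendocrine factors, which are TTTATG for CDX factors, CAATAAA for HOX13 factors, CAAAGT for HNF4 factors and CAGATG for NEUROD1. The CDX and HOX13 motifs can overlap in part. The windows lie at chr7:30823746-30824025 and chr7:30821619-30821898 for the first and second start site of Ffar2, at chr19:38096829-38097108 for Ffar4 and at chr7:30856149-30856428 for Ffar3.
Ffar2, first start site: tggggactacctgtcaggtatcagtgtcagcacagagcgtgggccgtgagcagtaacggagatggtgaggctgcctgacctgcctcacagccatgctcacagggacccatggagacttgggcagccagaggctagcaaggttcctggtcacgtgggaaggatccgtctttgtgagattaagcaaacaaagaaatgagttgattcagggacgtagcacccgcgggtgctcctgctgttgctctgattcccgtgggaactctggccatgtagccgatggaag
Ffar2, second start site: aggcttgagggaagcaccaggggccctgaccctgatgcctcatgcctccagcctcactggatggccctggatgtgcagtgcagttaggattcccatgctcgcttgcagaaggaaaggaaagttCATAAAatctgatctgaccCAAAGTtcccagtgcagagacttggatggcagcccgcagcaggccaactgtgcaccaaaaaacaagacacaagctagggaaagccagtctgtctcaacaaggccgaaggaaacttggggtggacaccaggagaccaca
Ffar4: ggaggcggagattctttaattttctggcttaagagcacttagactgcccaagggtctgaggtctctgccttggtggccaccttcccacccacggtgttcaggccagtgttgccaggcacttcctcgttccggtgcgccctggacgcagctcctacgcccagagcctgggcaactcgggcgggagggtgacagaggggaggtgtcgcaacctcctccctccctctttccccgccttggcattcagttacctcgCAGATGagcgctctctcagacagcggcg
Ffar3: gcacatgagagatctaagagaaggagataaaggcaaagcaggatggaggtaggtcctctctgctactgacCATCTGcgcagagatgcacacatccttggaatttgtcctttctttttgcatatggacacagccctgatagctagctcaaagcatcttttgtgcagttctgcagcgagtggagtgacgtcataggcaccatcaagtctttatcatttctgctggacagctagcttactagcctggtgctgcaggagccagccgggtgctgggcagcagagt

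The second Ffar2 window held the CDX motif, read as CATAAA, 127 bases before the start site, and the HNF4 motif 108 bases before it. RefSeq gives Ffar2 4 windows, and the other 3, the first among them, held none of the 4 motifs. The Ffar4 window held the NEUROD1 motif just after the start site, and the Ffar3 window held it, read as CATCTG, 180 bases before the start. Such short motifs are common. Of 32851 windows of all genes, 11.9% held the CDX motif, 4.60% the HOX13 motif, 14.4% the HNF4 motif and 17.2% the NEUROD1 motif on either strand. A match describes the letters of the window only.

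Per kilobase of gene length, which allows genes to be set against each other, the colon libraries carried mainly Ffar4 and Ffar2. In GFP-high colon, Ffar4 averaged 54.7 ± 7.86, Ffar2 46.0 ± 2.69, Ffar3 9.78 ± 7.29 and Gpr35 1.80 ± 0.721 CPM per kilobase (SD, n = 3 libraries). In GFP-negative colon the order was the same, with Ffar4 at 64.7 ± 20.02, Ffar2 at 36.8 ± 5.91, Ffar3 at 3.14 ± 1.02 and Gpr35 at 1.90 ± 0.284 CPM per kilobase. In small intestine the order was Ffar4 at 9.78 ± 3.89, Ffar3 at 6.81 ± 4.08, Ffar2 at 2.77 ± 1.00 and Gpr35 at 1.95 ± 0.319 CPM per kilobase. In small intestine each of the 3 neighbouring pairs in this order was closer than the larger of its SDs, and in both colon groups none of the 3 was. In GFP-high colon the lowest Ffar4 library, at 48.8 CPM per kilobase, lay just above the highest Ffar2 library, at 48.5. Gpr119, Ffar1, Gpbar1 and Hcar2 averaged under 1 CPM per kilobase in every group. Ffar2 and Ffar4 together made up 88.7% ± 6.14 of the summed per-kilobase level of the 8 receptors in GFP-high colon, 93.7% ± 2.86 in GFP-negative colon and 58.0% ± 18.1 in small intestine. The sum itself was 113 ± 3.81 in GFP-high colon, 108 ± 21.1 in GFP-negative colon and 21.5 ± 2.35 CPM per kilobase in small intestine. The remaining share in small intestine was held mainly by Ffar3, with 31.8% ± 20.2, and Gpr35, with 9.07% ± 1.16.

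**Figure D1:**
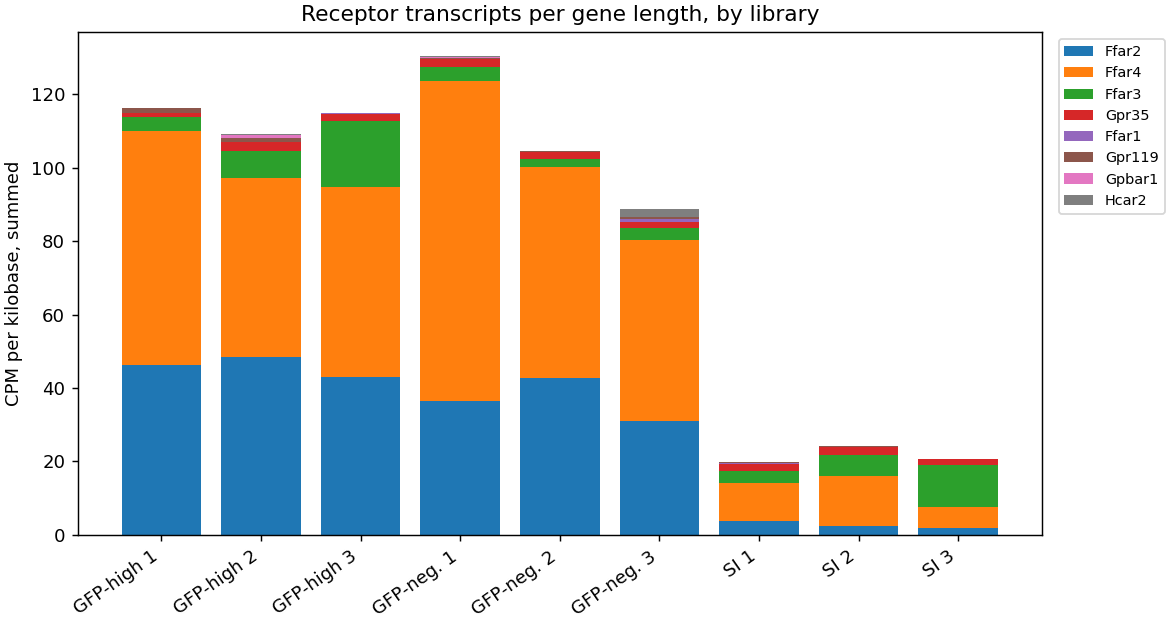
Stacked CPM per kilobase of gene length of the 8 receptors in each of the 9 libraries, GFP-high colon, GFP-negative colon and small intestine (SI) in turn, 1 bar per library. The 6 colon bars reach 88.7 to 130.4 CPM per kilobase, mostly Ffar2 and Ffar4, and the 3 small intestinal bars reach 19.8 to 24.2.

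Ffar2, the short-chain fatty acid receptor that couples to both Gi and Gq proteins, was the receptor with the largest difference between the tissues among the 2 that passed the test. It had 129, 135 and 120.3 CPM in GFP-high colon and 102, 119.5 and 86.6 CPM in GFP-negative colon, against 10.8, 6.85 and 5.47 CPM in small intestine. Every colon library lay above every small intestinal library. The share of all genes tested whose groups separate without overlap is not given here, so separation, here and below, is a description only. Over both colon groups, Ffar2 was higher than in small intestine by a log2 fold change of 3.89 ± 0.30 (SE), 14.9-fold, with an adjusted p of 0.000194 in edgeR's quasi-likelihood test. Taken alone, GFP-high colon was higher by 4.05 ± 0.31 (adjusted p = 0.000297) and GFP-negative colon by 3.73 ± 0.31 (adjusted p = 0.000439). These comparisons share the small intestinal libraries. Leaving out each library in turn kept the log2 fold change of all colon over small intestine between 3.72 and 4.22, with adjusted p no higher than 0.00164. In bulk RNA such as this, fewer cells of a type and less RNA per cell cannot be told apart.

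Ffar4, also called GPR120, the receptor for long-chain unsaturated fatty acids, was higher in colon as well. It had 89.1, 68.4 and 72.2 CPM in GFP-high colon and 122, 80.6 and 68.9 CPM in GFP-negative colon, against 14.2, 18.9 and 8.00 CPM in small intestine. The lowest colon library was again above the highest small intestinal one. All colon exceeded small intestine by a log2 fold change of 2.60 ± 0.34, 6.08-fold (adjusted p = 0.00275), GFP-high colon alone by 2.48 ± 0.36 (adjusted p = 0.00628) and GFP-negative colon alone by 2.72 ± 0.37 (adjusted p = 0.00413). Without each library in turn the log2 fold change of all colon over small intestine lay between 2.36 and 2.91, with adjusted p up to 0.016. Library names carry number tags that some colon and small intestinal libraries share, as do some libraries of the 2 colon groups. The labels do not say what the tags mean. With the tag as a replicate block, which leaves 2 residual degrees of freedom, the calls of both receptors were lost, at log2 fold changes of 4.17 for Ffar2 (adjusted p = 0.0536) and 2.81 for Ffar4 (adjusted p = 0.108).

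**Figure D2:**
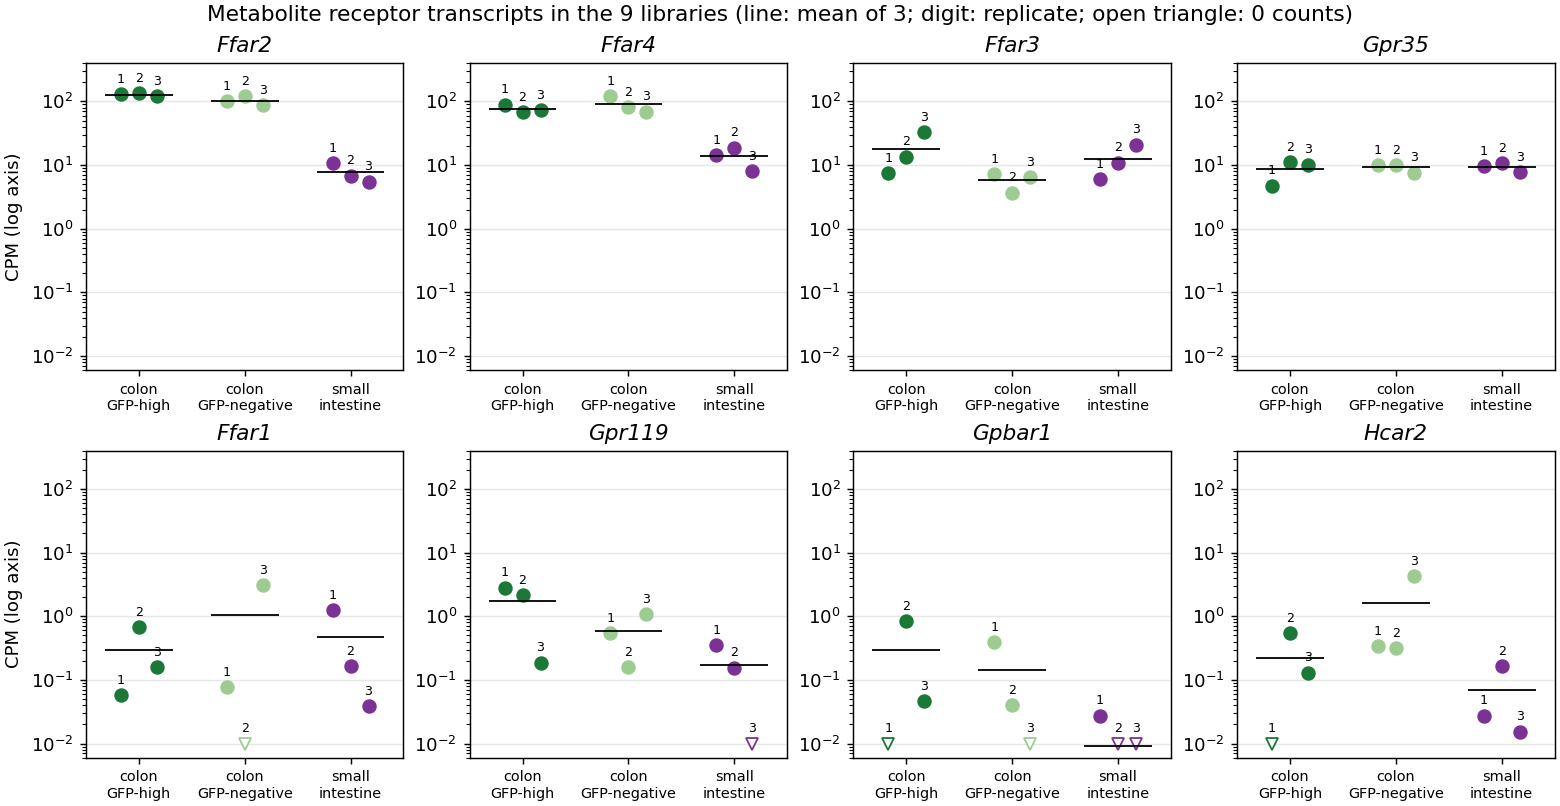
CPM of each receptor in each library on a log axis, with GFP-high colon left, GFP-negative colon in the middle and small intestine right; points are libraries, digits their replicate numbers, lines group means and open triangles libraries with 0 counts. Ffar2 and Ffar4 separate colon from small intestine, Gpr35 is level, and the 4 receptors of the lower row vary widely between libraries of 1 group.

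Within the colon, Ffar2 and Ffar4 varied little from library to library. The highest colon library exceeded the lowest 1.56 times for Ffar2 and 1.79 times for Ffar4. Over the same 6 libraries the enteroendocrine sum varied 88.0 times, the leukocyte sum 390.2 times and the sum of 12 tuft cell genes 6.37 times. Some other lists were about as steady as the receptors, with 1.91 times for stroma, endothelium and nerve, 2.06 times for small intestinal enterocytes and 2.21 times for epithelium, and the remaining 5 lists varied 5.12 to 31.5 times. These are sums over lists set against single genes. Of the goblet cell markers, Spdef and Atoh1 had log2 fold changes of 3.22 ± 0.35 and 2.86 ± 0.38 for all colon over small intestine. Between GFP-high and GFP-negative colon they stood at 0.25 ± 0.34 and -0.23 ± 0.38, and Ffar4 at -0.24 ± 0.34. The other goblet cell markers had standard errors of 0.65 to 1.85 there. Chga, a granin of enteroendocrine secretory granules, had 4311 CPM in the replicate 2 library labelled GFP-high and 18.7 CPM in the one labelled GFP-negative, where Ffar2 stood at 135 and 119.5 CPM. Marker sums of other cell types also differed between the tissues. Stem cell markers summed to 321 to 1643 CPM in colon and 6065 to 11626 CPM in small intestine, a difference made up mainly by Olfm4, the 1 gene of the 10 that passed the test, at 2.98 CPM in colon and 7052 CPM in small intestine on average. Small intestinal enterocyte markers summed to 239 to 493 CPM in colon and 656 to 23219 CPM in small intestine, and 9 of 10 passed as lower in colon. The sums of colonocyte markers, 1944 to 32290.5 CPM in colon and 505 to 4275 CPM in small intestine, overlapped, and 2 of 10 passed as higher in colon. Those of goblet cell markers, 7738 to 49238 CPM in colon and 2589 to 19911 CPM in small intestine, overlapped as well, and 5 of 10 passed as higher in colon. By sign alone, 10 of 10 enterocyte markers were lower in colon, and 5 of 10 colonocyte and 9 of 10 goblet cell markers were higher. Of all genes tested, 5.02% passed as higher in colon and 3.74% as lower. The part of these cell types in the difference of Ffar2 and Ffar4 was not tested.

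**Figure D3:**
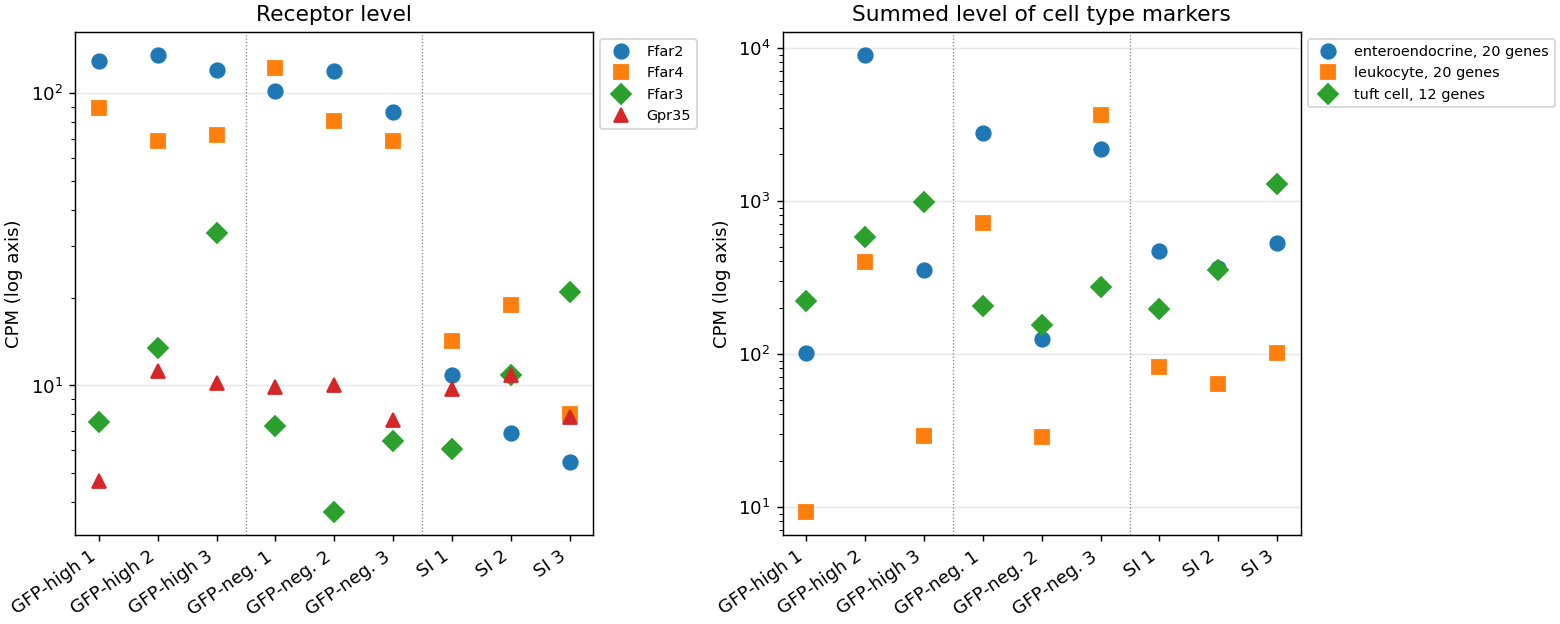
Left, CPM of the 4 most abundant receptors in each library, and right, summed CPM of the enteroendocrine, leukocyte and tuft cell marker lists in the same libraries, both on log axes. Ffar2 and Ffar4 keep to a narrow band over the 6 colon libraries, while the enteroendocrine sum runs between 101 and 8920 CPM there, and Ffar3 stands highest in the libraries with the 2 highest tuft cell sums.

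Ffar3, the Gi-coupled short-chain fatty acid receptor next to Ffar2, did not pass the test in any comparison. It had 7.52, 13.5 and 33.3 CPM in GFP-high colon, 7.28, 3.69 and 6.43 CPM in GFP-negative colon and 6.06, 10.9 and 20.8 CPM in small intestine. The colon libraries as a whole overlapped those of small intestine, and the log2 fold change was -0.30 ± 0.52 (adjusted p = 0.771). All 3 GFP-high libraries lay above all 3 GFP-negative ones, though replicate 1 of each differed by 7.52 against 7.28 CPM. This separation also rests on the labels of the replicate 2 pair (13.5 against 3.69 CPM), in which Lgr5 went against the labels. Without the share of all genes that separate in this way, no result is read from the separation. The log2 fold change of GFP-high over GFP-negative was 1.64 ± 0.63, with an unadjusted p of 0.0281 and an adjusted p of 1. Without GFP-high colon replicate 3 it was 0.84. Tuft cell genes moved with Ffar3. Their sum was 222, 578 and 981 CPM in GFP-high colon, 203, 154 and 274 CPM in GFP-negative colon and 195, 350 and 1291 CPM in small intestine. In GFP-high colon and in small intestine, replicate 3 was the highest library for Ffar3 and for the tuft list alike. None of the 12 tuft genes was at 0 in any library. Trpm5, the tuft cell cation channel, had 87.2 CPM in GFP-high colon replicate 3 and 125 CPM in small intestine replicate 3. The part of tuft cells in the level of Ffar3 was not tested.

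Gpr35, which couples to inhibitory G proteins among others, was nearly level across the study. It had 4.73, 11.2 and 10.2 CPM in GFP-high colon, 9.89, 10.1 and 7.60 CPM in GFP-negative colon and 9.73, 10.8 and 7.79 CPM in small intestine. Its highest library exceeded its lowest 2.37 times, against 24.7 times for Ffar2, 15.3 times for Ffar4 and 9.02 times for Ffar3. The log2 fold change was -0.08 ± 0.31 for all colon over small intestine (adjusted p = 0.906) and -0.08 ± 0.36 for GFP-high over GFP-negative (adjusted p = 1). The groups overlapped in each comparison, and GFP-high colon replicate 1 was the lowest library.

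The 4 remaining receptors were the lowest of the 8 on average, at 0 to 4.27 CPM over the libraries, and none of the 3 that were tested passed. Gpr119, a Gs-coupled receptor of enteroendocrine cells, had 2.83, 2.18 and 0.186 CPM in GFP-high colon, 0.544, 0.159 and 1.07 CPM in GFP-negative colon and 0.356, 0.156 and 0 CPM in small intestine. The groups overlapped. The log2 fold change of GFP-high colon over small intestine was 3.35 ± 1.55 (adjusted p = 0.268), and that of all colon 2.58 ± 1.40 (adjusted p = 0.296). Gpr119 was highest in GFP-high colon replicate 1, where the enteroendocrine sum was lowest of the 9 libraries, at 101 CPM. The sum of 11 gut hormone genes in that library was 641 CPM, within a range of 143 to 4987 CPM over the 9 libraries. The part of enteroendocrine cells in the Gpr119 level was not tested.

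Ffar1, the Gq-coupled receptor through which fatty acids raise insulin and incretin release, had 0.0573, 0.675 and 0.158 CPM in GFP-high colon, 0.0778, 0 and 3.07 CPM in GFP-negative colon and 1.23, 0.166 and 0.0387 CPM in small intestine. These are 6, 62 and 17 reads, 6, 0 and 286 reads, and 90, 17 and 5 reads. All groups overlapped, and the fold changes were smaller than their standard errors, at -1.82 ± 1.99 for GFP-high over GFP-negative and 0.23 ± 1.69 for all colon over small intestine on the log2 scale. The high library, GFP-negative colon replicate 3, also had the highest level of the neighbouring gene Cd22, at 24.4 CPM, against at most 0.687 CPM in the other libraries. It also had the highest level of 19 of the 20 leukocyte genes. Other libraries went otherwise. GFP-negative colon replicate 1, with the next highest leukocyte sum at 717 CPM, had Ffar1 at 0.0778 CPM. Small intestine replicate 1, with the next highest Ffar1 at 1.23 CPM, had a leukocyte sum of 81.6 CPM. The part of leukocytes, or of reads shared with a neighbour, in the Ffar1 level of GFP-negative colon replicate 3 was not tested.

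Hcar2, a Gi-coupled receptor also known from immune and fat cells, was highest in the same library. It had 0, 0.544 and 0.130 CPM in GFP-high colon, 0.337, 0.319 and 4.27 CPM in GFP-negative colon and 0.0274, 0.166 and 0.0155 CPM in small intestine. The GFP-negative libraries lay above those of small intestine, and the remaining groups overlapped. The log2 fold change of GFP-negative colon over small intestine was 4.53 ± 1.86 (adjusted p = 0.208 in edgeR and 0.0276 in DESeq2), and 2.26 without GFP-negative colon replicate 3. The leukocyte sum in that replicate was 3598 CPM, and its part in the Hcar2 level was not tested. Gpbar1, the Gs-coupled bile acid receptor also called TGR5, was not tested for differences because of its low counts. It had 0, 78 and 5 reads in GFP-high colon, 30, 4 and 0 in GFP-negative colon and 2, 0 and 0 in small intestine. The 2 highest libraries, at 0.849 and 0.389 CPM, were the 2 with the highest enteroendocrine sums, 8920 and 2746 CPM. The library with the next highest sum, GFP-negative colon replicate 3 at 2159 CPM, had 0 reads. The part of enteroendocrine cells in the Gpbar1 level was not tested. In the other 7 libraries it lay at 0.0465 CPM or below, with 0 reads in 4, where a count of 0 allows up to 0.0232 to 0.0322 CPM (counting error only).

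**Figure D4:**
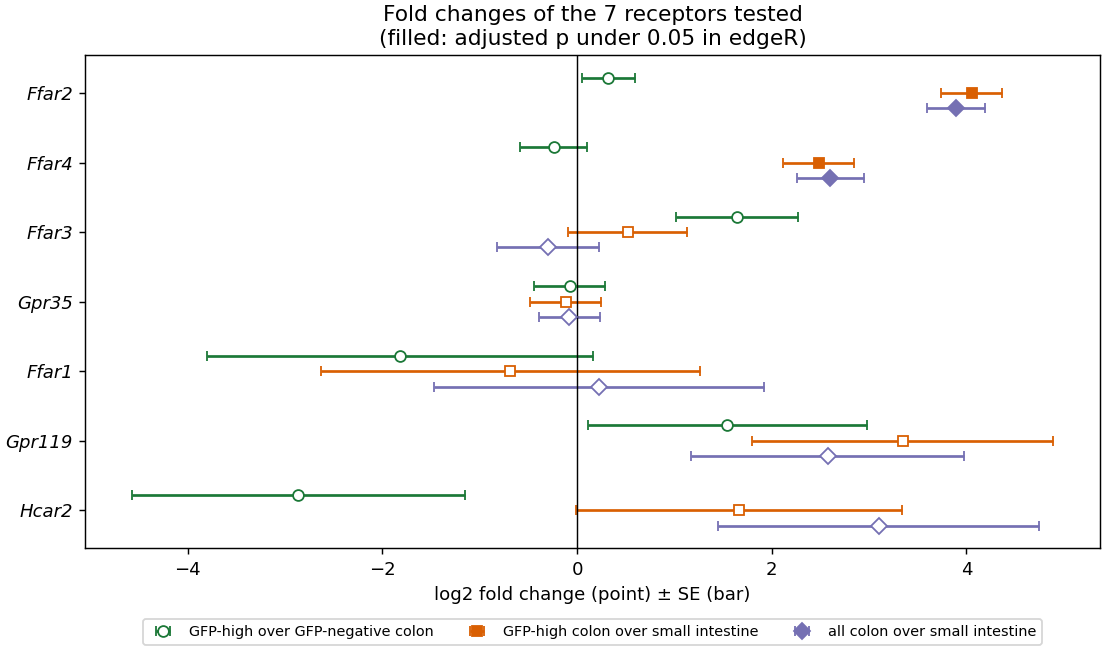
Log2 fold changes of the 7 receptors tested, as points with their standard errors as bars, for GFP-high colon over GFP-negative colon, GFP-high colon over small intestine and all colon over small intestine. The filled points, with adjusted p under 0.05, are those of Ffar2 and Ffar4 in the comparisons with small intestine, and the bars of Ffar1, Gpr119 and Hcar2 are the widest.

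Set against the whole table, 2 of the 7 receptors tested, both higher in colon, passed at an adjusted p under 0.05 in each comparison with small intestine. Of all genes tested, 8.76% passed for all colon against small intestine, made up of 5.02% higher and 3.74% lower in colon. For GFP-high colon alone 5.63% passed, with 3.91% higher and 1.72% lower, and for GFP-negative colon alone 5.64% passed, with 3.95% higher and 1.69% lower. The median log2 fold change of the 7 for all colon, 2.58, is the value of Gpr119, which did not pass (adjusted p = 0.296 in edgeR). It was -0.0004 over all genes tested. Of the 5 receptors above 0, Gpr119, Hcar2 and Ffar1 did not pass. Gpr119 and Hcar2 averaged 0.171 and 0.0696 CPM in small intestine. A filter on low counts can keep such genes through their colon libraries, which favours a value above 0, so no shift of the list is read from the median. These counts describe 7 genes that passed a filter on low counts, and no test was made over the list.

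Between GFP-high colon and GFP-negative colon, no receptor passed. The replicate 1 libraries of these 2 groups share a number tag, as do the replicate 2 libraries, so they may be pairs. The labels do not settle this, and the main fit treated them as unpaired. With a replicate block by title number, by full tag or by the first 2 numbers of the tag, edgeR called 0 genes of the whole table. Of all genes tested, 0% passed in edgeR, while 222 had an unadjusted p under 0.05, and DESeq2 called 1 gene and limma-voom 0. Without the replicate 2 pair edgeR still called 0 genes, with 1577 at an unadjusted p under 0.05, while DESeq2 called 700 and limma-voom 2. Ffar2 was higher in GFP-high by a log2 fold change of 0.32 ± 0.28, with 128 ± 7.50 CPM in GFP-high libraries and 103 ± 16.5 CPM in GFP-negative libraries (SD, n = 3). The GFP-high libraries lay above the GFP-negative ones by as little as 120.3 against 119.5 CPM. Ffar4 differed by -0.24 ± 0.34, with overlapping groups. Without the replicate 2 pair, in which Lgr5 went against the labels, the values were 0.41 for Ffar2, -0.24 for Ffar4 and 1.57 for Ffar3, with adjusted p between 0.771 and 0.95. Of the 7, Hcar2 had the largest fold change without that pair, -5.11 on the log2 scale, with an adjusted p of 0.683.

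The genes whose pattern across the 9 libraries was most like a receptor were found by the root-mean-square difference of centred log2(CPM + 0.1) values, in log2 units. For Ffar4 they were Nans, a sialic acid synthase, at 0.24, and Acyp2, an acylphosphatase, at 0.28. For Ffar2 they were Bace2, a transmembrane protease, at 0.34, and Klk1b3, a kallikrein whose close paralogs make its count uncertain, at 0.34. For Ffar3 they were Nrgn at 0.35 and Cd300lf at 0.35, and for Gpr35 Cdadc1 at 0.11 and Ppp2ca, a phosphatase 2A catalytic subunit, at 0.12. Cd300lf had 8.86, 16.5 and 56.8 CPM in GFP-high colon, 9.10, 5.95 and 9.60 CPM in GFP-negative colon and 7.61, 14.4 and 56.2 CPM in small intestine, high in the same libraries as Ffar3. The low receptors had looser matches, with Fut7 at 0.42 and Cckar at 0.50 for Ffar1 and Eaf2 at 0.36 and Atp10d at 0.45 for Hcar2. All pairs share libraries and depth, and closeness here describes 9 values per gene. With a pseudocount of 1 CPM, both nearest genes stayed the same for Gpr35 alone, and neither did for Ffar2 and Hcar2.

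Genes that act with these receptors were read from 5 lists in the same fit, for all colon over small intestine. Of all genes tested there, 5.02% passed as higher in colon and 3.74% as lower. Of the 21 calls in the 5 lists, 14 held without the colon replicate 2 pair. Those of Lpar5, Arrb1, Prkar2a, Insl5, Slc5a8, Slc27a4 and Nr0b2 were lost (adjusted p between 0.0614 and 0.144). Of 13 calls for GFP-high colon alone, those of Gna14, Gnai1, Gnat3 and Pparg held without that pair, and of 13 for GFP-negative colon alone, those of Gna14, Gnai1, Plcb3, Slc5a8 and Pparg. With the full library name tag as a replicate block, none of the 21 calls held (adjusted p between 0.0934 and 0.580). With the first 2 numbers of the tag as the block, those of Gna14, Gnai1, Gip and Pparg held, and with the title number as the block 10 of the 21 held. Of 30 G protein and signalling genes, 3 passed as higher in colon and 3 as lower (15 and 15 by sign alone), and 24 did not pass. Their median log2 fold change was 0.04. The higher ones were G protein alpha subunits. Gna14, of the Gq class, averaged 56.2 CPM in colon and 0.272 CPM in small intestine (log2 fold change 7.64 ± 0.90, adjusted p = 0.00164, and 9.03 without small intestine replicate 3). Gnai1, of the inhibitory class, averaged 22.3 CPM in colon and 0.577 CPM in small intestine (5.24 ± 0.70, adjusted p = 0.003). Gnat3, gustducin, which is also on the tuft cell list, averaged 35.4 CPM in colon and 2.14 CPM in small intestine (3.83 ± 0.71, adjusted p = 0.0117). The lower ones were Plcb3, a phospholipase C that acts below Gq (-1.81 ± 0.31), Arrb1, which encodes beta-arrestin 1 (-1.22 ± 0.27), and Prkar2a, a regulatory subunit of protein kinase A (-0.71 ± 0.17). The calls of Gna14, Gnai1 and Plcb3 held without each library in turn. That of Gnat3 was lost without small intestine replicate 1 or 3 (adjusted p = 0.0592 and 0.0635). That of Arrb1 was lost without any of 6 libraries, all but GFP-high colon 3, GFP-negative colon 3 and small intestine 2 (adjusted p up to 0.136), and that of Prkar2a without any of the 9 (up to 0.155). Colon GFP-high alone passed for Gna14, Gnai1, Gnat3 and Plcb3, and GFP-negative colon alone for the same 4 genes and Plcb1.

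Of 11 hormone genes tested, 1 passed as higher in colon and 3 as lower (7 and 4 by sign alone). Insl5, a hormone of colonic enteroendocrine cells, averaged 16.01 CPM in colon and 0.0117 CPM in small intestine, where it had 4 reads in all. Its call was lost without any of 7 libraries, all but GFP-high colon 3 and GFP-negative colon 3 (adjusted p up to 0.156). Gip, the incretin of the upper small intestine, averaged 0.118 CPM in colon and 146 CPM in small intestine (-11.25 ± 1.68, and between -12.28 without GFP-high colon 1 and -7.66 without small intestine 1). Ghrl, which encodes ghrelin, averaged 0.0736 CPM in colon and 4.09 CPM in small intestine (-5.89 ± 0.91). Cck, which encodes cholecystokinin, averaged 6.39 CPM in colon and 75.4 CPM in small intestine (-3.95 ± 0.87). The calls of Gip and Ghrl held without each library in turn. That of Cck was lost without any of 5 libraries, GFP-high colon 1 or 3, GFP-negative colon 2 or small intestine 1 or 3 (adjusted p up to 0.109), and its log2 fold change lay between -4.65 without GFP-negative colon 1 and -2.96 without small intestine 1. Colon GFP-high alone passed for Insl5, Gip and Ghrl, and GFP-negative colon alone for Gip, Ghrl and Cck.

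Of 14 genes that carry or bind the ligands, 1 passed as higher in colon and 4 as lower (3 and 11 by sign alone). Their median log2 fold change was -2.42. Slc5a8, a sodium-coupled transporter of short-chain fatty acids and lactate, averaged 102.5 CPM in colon and 7.57 CPM in small intestine (3.73 ± 0.92, adjusted p = 0.0386). Its call was lost without any of 7 libraries, all but GFP-high colon 1 and GFP-negative colon 2 (adjusted p up to 0.144), and its log2 fold change was 4.33 without small intestine 1. Fabp1, the liver-type fatty acid binding protein, averaged 22.9 CPM in colon and 4847 CPM in small intestine (-7.81 ± 1.08, and -5.54 without small intestine 1). Slc5a12, a relative of Slc5a8, had 10 reads in all in colon and averaged 6.44 CPM in small intestine (-8.75 ± 1.52, and between -11.00 without GFP-negative colon 2 and -7.80 without small intestine 1, with -10.03 without GFP-high colon 3). The fatty acid transport proteins Slc27a2 (-3.43 ± 0.72) and Slc27a4 (-3.36 ± 0.70) were the others. Fabp1 and Slc5a12 were called without each library in turn. Slc27a2 lost its call without GFP-high colon 1 or any small intestinal library (adjusted p up to 0.0700) and was at -4.27 without GFP-negative colon 2. Slc27a4 lost its call without GFP-high colon 1 or 3, GFP-negative colon 1 or small intestine 1 or 3 (adjusted p up to 0.0893) and was at -2.56 without small intestine 1. Colon GFP-high alone passed for Fabp1 and Slc5a12, and GFP-negative colon alone for Fabp1 and Slc5a8.

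Of 12 transcription factors that sense lipids, bile acids or xenobiotics, 1 passed as higher in colon and 4 as lower (3 and 9 by sign alone). Their median log2 fold change was -0.998. Pparg, a nuclear receptor for fatty acids, averaged 146 CPM in colon and 23.0 CPM in small intestine (2.66 ± 0.22, adjusted p = 0.000297). Hnf4a (-1.22 ± 0.21) and Hnf4g (-2.69 ± 0.46, and -1.70 without small intestine 1) were lower in colon. The calls of Pparg, Hnf4a and Hnf4g held without each library in turn. Nr1i3, the xenobiotic receptor CAR, averaged 0.134 CPM in colon and 4.46 CPM in small intestine (-6.04 ± 1.25). Its call was lost without GFP-high colon 3, GFP-negative colon 1 or small intestine 1 or 3 (adjusted p up to 0.0882), and its log2 fold change was -6.85 without GFP-high colon 2, -7.22 without GFP-negative colon 3 and -4.77 without small intestine 1. Nr0b2, which represses bile acid synthesis in liver, averaged 0.588 CPM in colon and 10.8 CPM in small intestine (-4.33 ± 1.04). Its call was lost without any of 7 libraries, all but GFP-high colon 3 and GFP-negative colon 3 (adjusted p up to 0.103), and its log2 fold change was -4.93 without GFP-high colon 3. Colon GFP-high alone passed for Pparg, Hnf4a, Hnf4g and Nr1i3, and GFP-negative colon alone for Pparg, Hnf4a and Hnf4g.

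Of 16 other metabolite receptors tested, 0 passed as higher in colon and 1 as lower (8 and 8 by sign alone). It was Lpar5, a lysophosphatidic acid receptor, at 12.4 CPM in colon and 23.1 CPM in small intestine (-0.90 ± 0.20, adjusted p = 0.0273). Its call was lost without any of 7 libraries, all but GFP-negative colon 2 and 3 (adjusted p up to 0.109), and no gene of this list passed for either colon group alone. Of the calls of related genes for a single colon group, those of Gna14, Gnai1 and Pparg held without each library in turn, and each of the others was lost without 2 to 8 of the 9 libraries (adjusted p up to 0.161). Between GFP-high and GFP-negative colon, no gene of the 5 lists passed. The 2 most abundant signalling genes there, Gnas, which encodes the stimulatory G protein subunit, and Gnb1, had log2 fold changes of -0.01 ± 0.24 and -0.02 ± 0.22. Tph1, the enzyme of serotonin synthesis, and Sct, which encodes secretin, stood at 0.59 ± 1.86 and 0.40 ± 1.47. Bsg and Fabp1 stood at -0.10 ± 0.34 and 0.97 ± 1.11, Vdr and Hnf4a at 0.39 ± 0.47 and -0.10 ± 0.25, and Lpar5 and Gpr18 at 0.17 ± 0.24 and -1.89 ± 1.32.

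**Figure D5:**
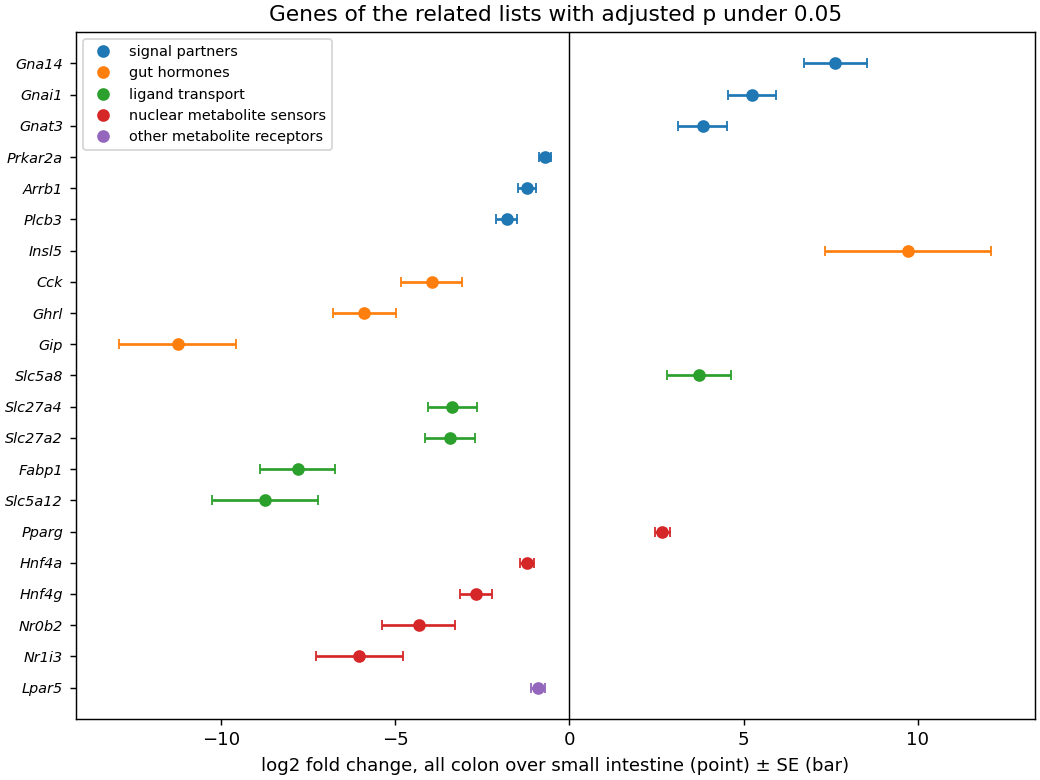
Log2 fold changes of all colon over small intestine, as points with their standard errors as bars, for the genes of the 5 related lists with adjusted p under 0.05, coloured by list. Of these 21 genes, 6 lie to the right (higher in colon), among them the G protein subunits Gna14, Gnai1 and Gnat3; the points of Insl5 and Slc5a12 rest on 4 and 10 reads in the lower tissue.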

How the data were processed

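RNA-seq was analysed from 9 libraries of sorted mouse intestinal cells. Per the file headers, the deposited values are a read count for each library and gene (78239 genes), other quantities such as gene length and library total, and a scaling factor per library, which is a ratio. It also holds the authors' log2 CPM, log2 RPKM and log2 TPM, which entered no test. STAR, featureCounts, Subread and edgeR with build mm10 are named, without versions, in the submitters' processing notes. For the annotation release, strand setting and treatment of reads with several matches, nothing is given in the sources used here. Gene IDs carry other versions than GENCODE M21, from which coordinates were taken.

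Levels are CPM from the counts, totals and deposited factors, which equal TMM factors computed on all genes. Tests used edgeR 4.0.16 in R 4.3.3, with filterByExpr on the groups, 1 glmQLFit over all 9 libraries and two-sided glmQLFTest contrasts. P-values were Benjamini-Hochberg adjusted over 20610 genes, and a gene was called at an adjusted p under 0.05. Standard errors follow from the log2 fold change and its F statistic. The fit was tested on simulated data. Alternatives used DESeq2 1.42.0 and limma 3.58.1 (voom), other scalings and filters, left-out libraries and replicate blocks.

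The members, gene lists and tests were chosen with earlier results of these data known. All members are named. Of each related list, up to 4 called genes of largest log2 fold change per direction and comparison are named, or the 2 of highest mean CPM where none was called. Marker lists are given as summed CPM, with some of their genes by name. The genes closest in pattern to Gpr119 are not reported here. The blocks on the first 2 numbers of the name tag, and the DESeq2 and limma fits without the colon replicate 2 pair, were added after seeing the data. Not found in the table were Olfr78, Olfr558 and Mln, so those are not analysed here. The spread between libraries was a common biological coefficient of variation of 0.726, and floors of 3 counts cover counting error only.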

Additional observations from a re-analysis of the deposited data

How the results depend on the processing

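Of 601 alternative fold changes of the receptors, 555 kept their direction and side of the threshold. In the comparisons with small intestine, Ffar2 and Ffar4 were called in every alternative except the block on the full library name tag. That replicate block left 0 receptors called in each of the 3 comparisons, with adjusted p of 0.0536 to 0.0924 for Ffar2 and 0.108 to 0.184 for Ffar4, and called 17 genes of the whole table for all colon, against 1805 without it. A block on the first 2 numbers of the tag kept both calls (499 genes called in all), as did the replicate block by title number (887 genes, Ffar2 at 0.00257 and Ffar4 at 0.0102). Deviations of the 9 same-numbered pairs of libraries correlated between -0.64 and 0.323, over 0.1 in 2 of the 9. Those of the 5 same-tag pairs correlated between -0.64 and 0.33, over 0.1 in 2 of the 5. The -0.64 is the colon replicate 2 pair, in which Lgr5 went against the labels. Exchanged labels could also give such a value, so these correlations cannot settle whether libraries are pairs. The main fit did not take the title numbers as pairs. DESeq2 called 3618 genes for all colon, and between the colon fractions 700 without the replicate 2 pair, where edgeR called 0 and limma-voom 2. DESeq2 called Hcar2 for colon GFP-negative over small intestine, at 4.63, and at 5.12 without the replicate 2 pair (adjusted p = 0.0276 and 0.0185). All reversals were of uncalled fold changes. For Ffar1, all colon over small intestine (0.23) was -0.27 in limma-voom, -0.21 without the replicate 2 pair (-0.17 in DESeq2), -0.47 with the title block, -0.16 with the tag block and -1.92 with the shortened tag. Ffar1 in GFP-high over GFP-negative (-1.82) was 0.81 in limma-voom and 3.48 with the tag block, in GFP-high over small intestine (-0.68) it was 0.13 and 1.58, and in GFP-negative over small intestine (1.13) it was -0.68 and -1.90, with -0.23 by the title block and -1.82 by the shortened tag. Hcar2 in GFP-high over small intestine (1.66) was -0.10 without the replicate 2 pair (-0.0826 in DESeq2, -0.89 in limma-voom) and -0.21 with the shortened tag. Gpr119 in GFP-high over GFP-negative (1.54) was -0.11 in limma-voom without the pair, and Gpr35 there was 0.0363 with total-count scaling, which moves the median of all genes to 0.13. With 1 library left out, Ffar1 ran between -2.14 and 2.44 for all colon over small intestine, -3.27 and 2.91 for GFP-high over GFP-negative, -2.13 and 1.53 for GFP-high over small intestine and -3.60 and 3.35 for GFP-negative over small intestine. Ffar3 ran between -0.65 and 0.31 for all colon and -0.23 and 1.13 for GFP-high over small intestine, Ffar4 between -0.41 and 0.0356 for GFP-high over GFP-negative, and Hcar2 between -0.10 and 3.34 for GFP-high over small intestine. Gpr35 ran between -0.19 and 0.10 for all colon, -0.30 and 0.21 for GFP-high over GFP-negative, -0.34 and 0.21 for GFP-high and -0.13 and 0.12 for GFP-negative over small intestine. The cause was not tested. Receptor levels moved by less than 1 SD with total-count CPM. With 3 libraries a group, Ffar1, Gpr119 and Hcar2 had standard errors of 1.40 to 1.99 on the log2 scale. Differences well above that size were not called in edgeR either. Examples are 4.53 ± 1.86 for Hcar2 in GFP-negative colon (adjusted p = 0.208) and 3.35 ± 1.55 for Gpr119 in GFP-high colon (adjusted p = 0.268), both over small intestine.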
